A study of Drosophila melanogaster with 3 samples.

Results

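The 10 genes described here carry the response of Drosophila melanogaster to the steroid hormone ecdysone: EcR, usp, Eip74EF, Eip75B, Eip78C, Eip93F, br, Hr3, ftz-f1 and Hr39, of 13945 protein-coding genes in all. They were chosen by name, as receptor genes and classical target genes of the hormone. A peak of the chromatin protein Hmr (Hybrid male rescue) was counted for a gene when its summit lay in the gene body or within 5 kb of it. By that rule, 55 of the 8131 summits of the optimal list fell at 9 of the 10 genes. The 55 summits lay mostly inside long introns, with 17 at Eip75B, 11 at ftz-f1, 7 at Eip74EF, 5 each at EcR and Hr3, 4 at br, 2 each at usp, Eip78C and Hr39, and none at Eip93F.

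The samples were 3 biological replicates of ChIP-seq (chromatin immunoprecipitation followed by sequencing) on whole embryos of 0 to 24 h, of mixed sex, from 1 fly strain, Hmr-GFP. The strain stably expressed Hmr with GFP at its C terminus, and the tagged protein was pulled down with an antibody against GFP. There was 1 group and no untagged, untreated or hormone-deprived embryo to set it against, so every value below is a description. The labels do not state the promoter of the transgene or whether untagged Hmr was also made. An embryo holds many tissues, and a peak list cannot tell a site bound in a few cells from a site bound weakly in many. The deposited lists hold no counts, so the depth is unknown and no cell type marker could be checked.

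Ecdysone acts through a pair of nuclear receptors, EcR and Usp, which bind DNA together and switch genes on when the hormone is present. The pair first turns on early genes, among them Eip74EF, Eip75B and br, whose protein products then control later genes such as Hr3 and ftz-f1. Pulses of the hormone drive moulting and metamorphosis, and a pulse in the middle of embryogenesis is needed for later steps of embryo morphogenesis. Hmr is known for its part in the incompatibility of hybrids between D. melanogaster and its close relatives and for its place in heterochromatin.

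A small set of sequences shows what lay under these summits. They are RefSeq sequence of Release 6, which dm6 also is, on the strand of the gene, and none overlaps an annotated exon. The first set holds 3 intronic summits with GCGCCATCT, the core of the site bound by the insulator protein CTCF, which is in capitals. The strongest summit of EcR also had it and is not printed. The 3 are the 2 strongest intronic summits of Eip75B and the strongest intronic summit of Eip74EF.

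Eip75B, chr3L:18019715-18019915, minus strand: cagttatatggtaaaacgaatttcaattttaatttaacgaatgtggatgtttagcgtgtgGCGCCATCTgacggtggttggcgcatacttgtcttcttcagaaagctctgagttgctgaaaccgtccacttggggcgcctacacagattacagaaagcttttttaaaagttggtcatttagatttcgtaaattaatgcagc

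Eip75B, chr3L:17988210-17988410, minus strand: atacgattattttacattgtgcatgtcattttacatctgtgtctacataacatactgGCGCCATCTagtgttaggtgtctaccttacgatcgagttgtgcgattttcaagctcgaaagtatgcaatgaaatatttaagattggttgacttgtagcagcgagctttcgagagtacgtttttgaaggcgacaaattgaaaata

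Eip74EF, chr3L:17596950-17597150, minus strand: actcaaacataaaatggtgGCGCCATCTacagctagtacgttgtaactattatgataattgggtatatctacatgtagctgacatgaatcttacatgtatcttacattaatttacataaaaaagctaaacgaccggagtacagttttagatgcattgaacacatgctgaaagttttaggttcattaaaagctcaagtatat

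The second set holds summits with AGGTCA or its reverse complement, the hexamer that nuclear receptors share as a core site, in capitals. Both summits of Eip78C had it. The ftz-f1 sequence also has CTCTCTC, the reverse complement of the GAGAGAG repeat bound by GAGA factor, and CGCCATCT, the CTCF core without its first base, in capitals.

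Eip78C, chr3L:21241595-21241795, plus strand: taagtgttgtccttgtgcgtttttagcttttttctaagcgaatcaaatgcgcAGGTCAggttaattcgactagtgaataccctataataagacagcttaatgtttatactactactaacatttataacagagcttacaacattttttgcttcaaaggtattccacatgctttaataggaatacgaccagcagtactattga

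Eip78C, chr3L:21261080-21261280, plus strand: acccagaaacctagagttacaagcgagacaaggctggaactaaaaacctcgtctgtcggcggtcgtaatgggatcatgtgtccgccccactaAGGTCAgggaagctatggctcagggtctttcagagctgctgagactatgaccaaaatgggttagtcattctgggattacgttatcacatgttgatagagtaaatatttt

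ftz-f1, chr3L:18759257-18759457, minus strand: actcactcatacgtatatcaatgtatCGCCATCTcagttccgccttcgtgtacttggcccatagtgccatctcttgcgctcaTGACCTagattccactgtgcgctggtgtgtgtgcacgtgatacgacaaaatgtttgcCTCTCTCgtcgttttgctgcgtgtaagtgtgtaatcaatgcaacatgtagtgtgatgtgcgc

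The third set holds the 150 bases before 5 of the 7 starts that had a summit within 250 bp, shown to let the promoters be compared. The bases before the other 2, both of usp, begin in exons and are not printed. At the Eip75B-RA start, CTACCTG, the reverse complement of the Zelda site CAGGTAG, was found at 2 places, in capitals. None of the short sequences searched was found before the other 4 starts.

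Eip75B, start of transcript Eip75B-RC, chr3L:17999822-17999971, minus strand: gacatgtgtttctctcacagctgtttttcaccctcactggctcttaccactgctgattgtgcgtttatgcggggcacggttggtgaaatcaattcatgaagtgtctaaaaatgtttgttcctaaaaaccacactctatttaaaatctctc

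Eip75B, start of transcript Eip75B-RA, chr3L:17971440-17971589, minus strand: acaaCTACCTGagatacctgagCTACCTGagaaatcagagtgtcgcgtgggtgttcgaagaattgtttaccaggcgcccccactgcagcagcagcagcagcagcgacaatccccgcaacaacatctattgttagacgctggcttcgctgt

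Eip75B, start of transcript Eip75B-RD, chr3L:17961815-17961964, minus strand: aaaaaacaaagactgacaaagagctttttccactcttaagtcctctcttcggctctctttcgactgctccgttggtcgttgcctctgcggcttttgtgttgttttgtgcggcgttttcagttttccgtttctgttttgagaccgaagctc

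ftz-f1, start of transcripts ftz-f1-RC and ftz-f1-RD, chr3L:18765745-18765894, minus strand: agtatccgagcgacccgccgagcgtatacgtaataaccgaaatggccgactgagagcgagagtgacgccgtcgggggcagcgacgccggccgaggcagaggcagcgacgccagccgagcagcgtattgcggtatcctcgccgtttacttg

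Hr39, its only annotated start, chr2L:21237100-21237249, plus strand: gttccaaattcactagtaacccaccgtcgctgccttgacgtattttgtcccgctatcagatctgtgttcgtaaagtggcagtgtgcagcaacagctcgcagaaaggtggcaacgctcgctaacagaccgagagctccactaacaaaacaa

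An optimal summit lay in the window of 9 of the 10 ecdysone response genes, against 59.3% of all protein-coding genes. These genes are long, 22.4 to 114 kb apart from usp at 3514 bp, and long genes had a summit more often. Of protein-coding genes at least as long as usp, 73.2% had a summit in their window, and of the 1013 protein-coding genes of at least 20 kb, 83.7% did. Those 1013 genes include the 9 longer members. The count of 9 of 10 was near that last share and is not a result about these genes. Per length, the windows of the 10 genes held 8.32 optimal summits per 100 kb over 661 kb. The windows of all protein-coding genes held 6.93 per 100 kb, those of genes of at least 20 kb held 5.86, and the 6 chromosomes as a whole held 6.07.

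The 10 genes differed widely among themselves. Of all protein-coding genes, 10 had more summits than Eip75B, with its 17, and 45 had more than ftz-f1, with its 11. The median gene of at least 20 kb had 3 summits and the highest count for any gene was 26. Per 100 kb, ftz-f1 held 18.1 summits, usp 14.8, Eip75B 13.7, Hr3 11.5 and Eip74EF 9.91. Hr39 followed with 6.17, EcR with 5.48, br with 4.01 and Eip78C with 4.01. The counts of ftz-f1 and Eip75B include neighbouring summits 200 to 227 bp apart whose peaks overlap. Each was counted, though they may not be separate sites. Of the genes of at least 20 kb, 77 were denser than ftz-f1 and 155 denser than Eip75B, while 603 were denser than br. Eip93F, which is 65.4 kb long, was among the 16.3% of such genes with no optimal summit.

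**Figure D1:**
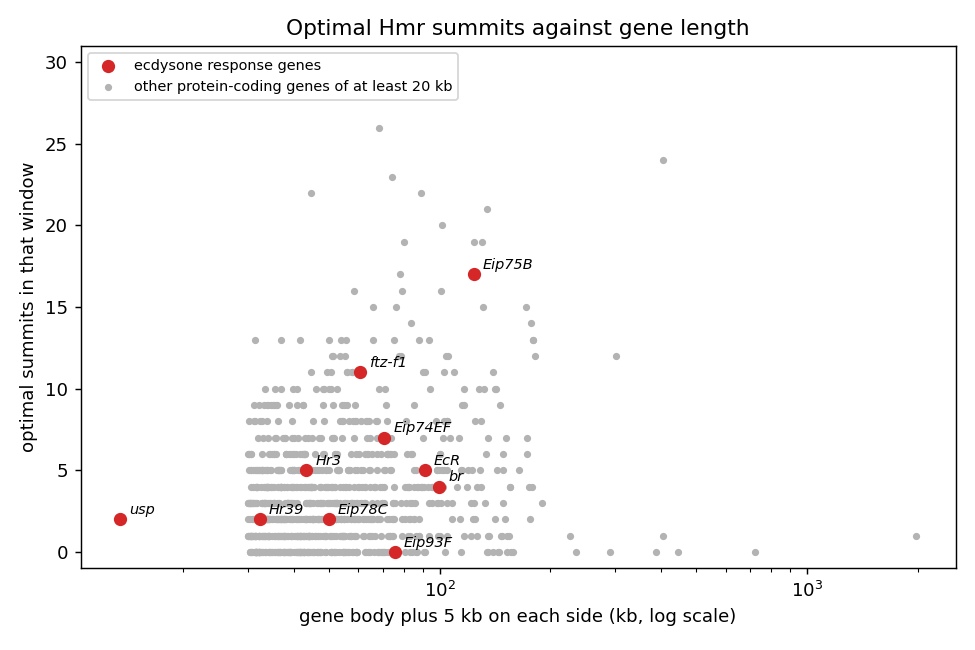
Optimal Hmr summits in a gene's window (vertical axis) against the length of that window in kb (log scale), for the 10 ecdysone response genes (red, named) and the other protein-coding genes of at least 20 kb (grey). Eip75B stands at 17 summits in 124 kb and ftz-f1 at 11 summits in 60.7 kb, while Eip93F stands at 0 summits in 75.4 kb.

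By their median, these summits were somewhat weaker than the optimal list as a whole. The authors' signal value of the 55 summits had a median of 244 (159 to 1762), and that of all 8131 summits a median of 276 (154 to 6656). Of the 55 summits, 19 lay above the median of all summits and 36 at or below it, and 4 were among the 1000 strongest of the 8131. The strongest summit of a gene had a median signal of 519 over the 9 genes, and of 473 over the 848 genes of at least 20 kb with a summit. The order from strong to weak was Hr3 (1762), EcR (1183), Eip75B (821), br (526), Eip74EF (519), ftz-f1 (444), usp (394), Hr39 (274) and Eip78C (174). In every replicate Hr3 ranked first of these genes. EcR came next in replicates 2 and 3, while Eip75B (rank 410) was ahead of EcR (rank 472) in replicate 1. The genes br, Eip74EF, ftz-f1 and usp changed places between replicates, so neighbours among them do not differ beyond their spread. Eip78C ranked below those 4 in both replicates that listed its summit. The order of Hr39 and Eip78C was not stable. Their summits ranked 12690 and 5088 in replicate 2, and 4578 and 6974 in replicate 3.

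**Figure D2:**
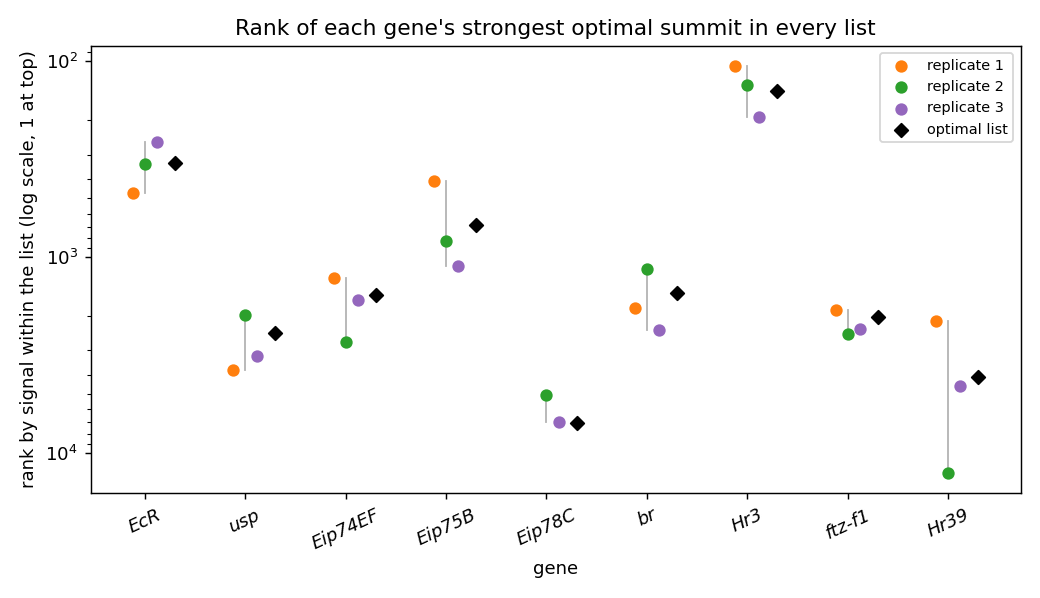
Rank by signal of each gene's strongest optimal summit in the 3 replicate lists (coloured points) and in the optimal list (black diamonds), on a log axis with strong summits at the top. Hr3 ranks between 106 and 193 and EcR between 258 and 472 in the 3 replicates, whereas the Hr39 summit ranks between 2120 and 12690; Eip78C has no point for replicate 1, whose list had no entry there.

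A summit counted as matched where any of a replicate's 8131 strongest entries had its summit within 200 bp. Of the 55 summits, 31 were matched in all 3 replicates (56.4%), against 59.7% of all optimal summits. A further 16 were matched in 2 replicates, 7 in 1, and 1 of ftz-f1 in none. The matching entry need not be the nearest one. At chr3L:18769691 (ftz-f1) and chr2R:10230875 (Hr3), both counted in the 31, the nearest entry ranked below 8131 in at least 1 replicate. Replicate 1 matched 72.7% of the 55 summits, replicate 2 76.4% and replicate 3 90.9%, a mean of 80.0% ± 9.62 (SD, n = 3). For all optimal summits these shares were 80.5%, 81.2% and 84.4%. Matching went with strength: 18 of the 19 summits above the median signal were matched in all 3 replicates, and 13 of the 36 at or below it. Over all summits those shares were 91.9% and 27.6%. Since the optimal list was made from these replicates, matching is no independent check.

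Introns held 42 of the 55 summits (76.4%), 7 lay within 250 bp of an annotated start of the gene (12.7%), 4 in the 3' flank and 2 in the 5' flank. Over all 3764 pairs of a summit and a gene of at least 20 kb, 58.9% were intronic and 14.4% at a start. Much of these genes is intron: 82.4% of the length of the 10 gene bodies is in no exon of any transcript, and 43 of the 48 summits inside a body (89.6%) lay in that part. The nearest intronic summit lay 1348 bp from a start of its own gene, at Eip78C, 18 of the 42 lay within 5 kb, and 24 lay farther away. Counting the starts of every gene, 12 of the 55 summits (21.8%) lay within 250 bp of one, against 38.5% of all optimal summits. From a summit to the closest start of any gene was 3460 bp in the median for the 55 summits and 577 bp for all.

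At the level of whole genes, 4 of the 10 had a summit within 250 bp of a start, usp, Eip75B, ftz-f1 and Hr39. The same was true of 23.4% of all protein-coding genes and of 41.4% of those of at least 20 kb, so this count too was near that of long genes. The 10 genes have 37 distinct annotated starts, and 7 of these (18.9%) had an optimal summit within 250 bp. That share was 20.3% over all starts of protein-coding genes and 22.4% over those of genes of at least 20 kb.

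**Figure D3:**
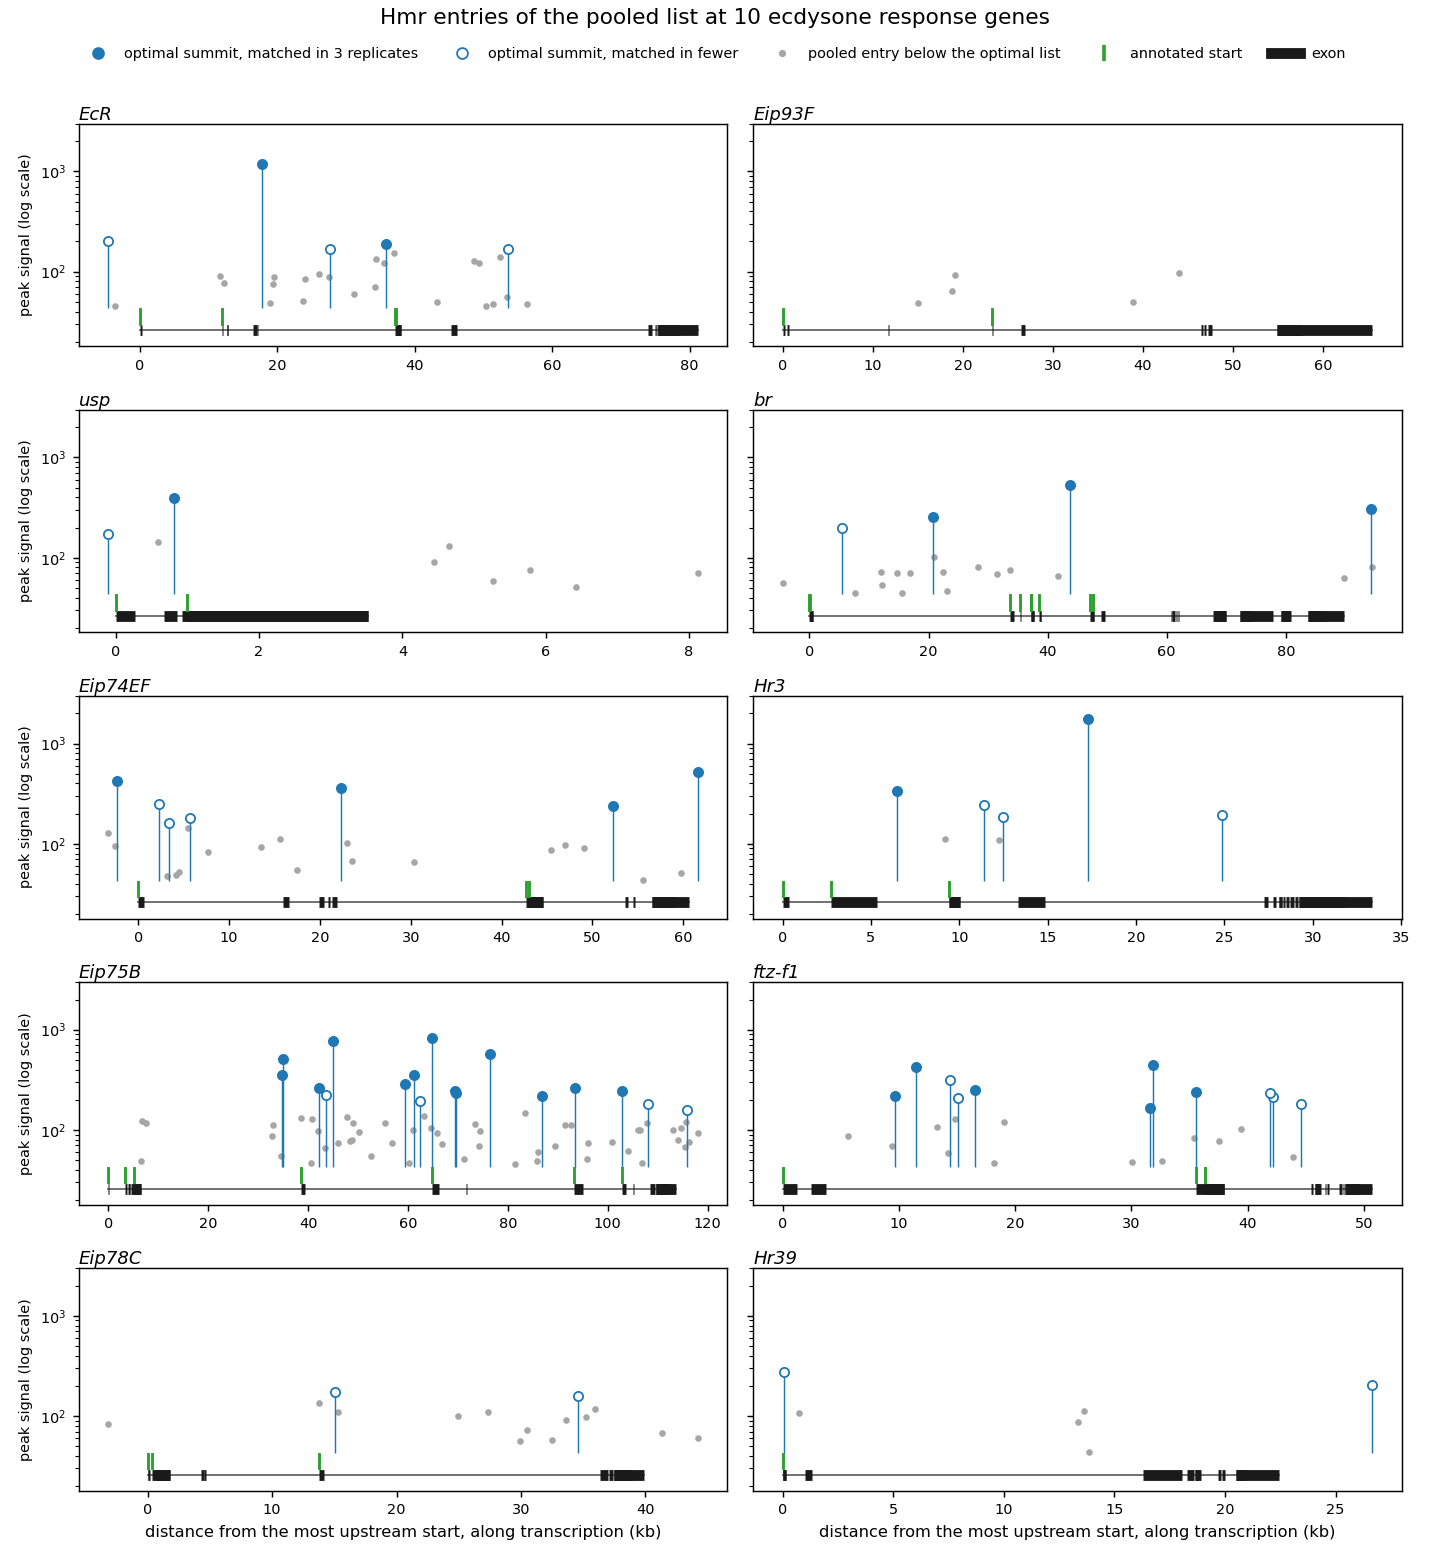
Pooled Hmr entries at each gene: signal on a log axis against distance from the most upstream start in kb, in the direction of transcription. Filled circles are optimal summits matched in 3 replicates, open circles those matched in fewer, grey dots pooled entries below the optimal list; green ticks mark starts and black blocks exons. The summits of Eip75B are spread from 34.7 to 116 kb, the part that holds its 4 most downstream starts. Of those of ftz-f1, 8 lie in its intron 2, whereas Hr3 and EcR each have a summit above 1000.

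The receptor genes came out differently from each other. EcR (FBgn0000546, chr2R:6087873-6169087, minus strand) encodes the ecdysone receptor and has 4 starts, with none of its 5 optimal summits within 250 bp of a start. Its strongest summit, at chr2R:6151330 in a peak at chr2R:6151096-6151574, had a signal of 1183 and rank 330 of 8131. The entry there had a signal of 307 and rank 472 in replicate 1, 417 and rank 336 in replicate 2, and 475 and rank 258 in replicate 3, a mean rank of 355 ± 108 (SD, n = 3). It lay 499 bp into intron 3 of 6 of transcript EcR-RA, which is 56.8 kb long, and 5799 bp downstream of the start of EcR-RD and EcR-RE. A tRNA gene for asparagine starts 1346 bp from it.

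The other 4 summits at EcR had signals of 167 to 204. The farthest, 4518 bp upstream of the gene, lay 79 bp from the start of Cyp6w1, a neighbouring gene. At the promoter of transcripts EcR-RB and EcR-RC, the pooled list had an entry 153 bp upstream of the start, with a signal of 154.287. It ranked 8139, 8 places below the end of the optimal list, whose weakest entry had 154.375. It was listed in replicate 1 (rank 8411) and replicate 3 (rank 6053) and not in replicate 2. By pooled rank, this promoter and the EcR-RG start, which shares that nearest entry, thus narrowly missed the optimal list. The other starts of EcR did not come close. The nearest pooled entry to the start of EcR-RD and EcR-RE lay 298 bp upstream, at rank 14195. That nearest to the EcR-RA start lay 3638 bp upstream, at rank 29133.

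Usp, the partner of EcR and the fly relative of the vertebrate retinoid X receptors, comes from usp (FBgn0003964, chrX:2038798-2042311, minus strand), the shortest of the 10 genes. Both of its optimal summits lay at its starts. The summit at chrX:2041505 (peak chrX:2041277-2041732, signal 394, rank 2452) lay 193 bp upstream of the start of usp-RA, inside a 5' untranslated exon of usp-RB. Its entries had signals of 98.0, 158 and 127 and ranks of 3792, 1983 and 3213 in replicates 1, 2 and 3. The summit at chrX:2042414 (peak chrX:2042186-2042641, signal 172, rank 7149) lay 103 bp upstream of the start of usp-RB. Its entries ranked 10276, 8653 and 5295 in replicates 1, 2 and 3, so only replicate 3 had it among its 8131 strongest. The gene Actn starts at the same base as usp-RB, on the same strand, and the gene CG4313 holds that summit in its body. That summit therefore cannot be given to usp rather than Actn or CG4313. The summit at chrX:2041505 also lay inside Actn. A stronger summit, rank 121, lay just outside the window, 7977 bp from usp and 168 bp from the start of moody.

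Among the early genes, Eip75B (FBgn0000568, chr3L:17950953-18064696, minus strand) had the most. It encodes nuclear receptors related to vertebrate Rev-erb that bind heme and hold back the activity of Hr3. Of its 17 summits, 13 were matched in all 3 replicates, and 16 lay in the gene body. Intron 3 of 7 of Eip75B-RF, 65.2 kb long, held 11 of them, and intron 4, 23.4 kb long, held 3. The 3 most upstream starts, those of Eip75B-RF, Eip75B-RE and Eip75B-RB, had no summit near them: the nearest summit was 34666, 31423 and 29568 bp downstream of them.

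At 3 of the 7 starts of Eip75B an optimal summit was found. The strongest of the gene, at chr3L:17999800 (peak chr3L:17999599-17999962, signal 821, rank 686), lay 21 bp downstream of the start of Eip75B-RC. Its entries had signals of 325, 262 and 236 and ranks of 410, 826 and 1116 in replicates 1, 2 and 3. The summit 182 bp downstream of the Eip75B-RA start (chr3L:17971257, peak chr3L:17971029-17971484) had a signal of 264 and rank 4288, and ranks of 4664, 6437 and 3677 in the replicates. The summit 72 bp downstream of the Eip75B-RD start (chr3L:17961742, peak chr3L:17961514-17961969) had a signal of 244 and rank 4735, and ranks of 4091, 4886 and 2962. The start of Eip75B-RG had a pooled entry 84 bp upstream that ranked 9587 and so missed the optimal list. All 3 optimal start summits were thus within the strongest 8131 entries of every replicate, and the Eip75B-RC start stood above the others in each.

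The next strongest summits of Eip75B were intronic and carried the CTCF core printed above. The summit at chr3L:18019815 had a signal of 768 and rank 771, with ranks of 985, 1218 and 590 in the replicates. The summit at chr3L:17988310 had a signal of 573 and rank 1316, with ranks of 1986, 1458 and 1361. They lay 6217 bp downstream of the Eip75B-RG start and 11511 bp downstream of the Eip75B-RC start. By summit count, window length and highest signal, the genes most like Eip75B were CG46467 (19 summits in 124 kb, highest signal 709), Glut4EF (19 in 131 kb, 709) and bun (16 in 101 kb, 808). Their distances to Eip75B on the log2 scale of the 3 measures were 0.26, 0.27 and 0.30. CG46467 and Glut4EF overlap each other and share their start and strongest summit.

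Eip74EF (FBgn0000567, chr3L:17558672-17619325, minus strand) encodes transcription factors of the Ets family. Its 7 summits had signals of 163 to 519, and 4 were matched in all 3 replicates. The strongest, at chr3L:17557711 (peak chr3L:17557483-17557938, signal 519, rank 1571), lay 961 bp beyond the 3' end and 77 bp from the start of CycT, and ranked 1285, 2710 and 1653 in the replicates. The second, signal 425, lay 2338 bp upstream of the gene and 38 bp from the start of Vps60. Both therefore stood at starts of neighbours. The strongest inside the gene, at chr3L:17597050, had a signal of 363 and carried the CTCF core, 409 bp into intron 5 of 7 of Eip74EF-RA, which is 31.7 kb long. It ranked 1997, 7515 and 2069, so replicate 2 had it much lower than the other two. The nearest summit to a start of Eip74EF itself was 2307 bp downstream of the Eip74EF-RA start.

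The br gene (FBgn0283451, chrX:1575132-1664869, plus strand) makes the Broad zinc finger proteins, which direct the start of metamorphosis. It has 9 starts, and none had an optimal summit within 250 bp. Of its 4 summits, 3 lay in intron 1 of br-RN, 48.4 kb long, and 3 were matched in all 3 replicates. The strongest, at chrX:1618876 (peak chrX:1618743-1618979, signal 526, rank 1528), lay 3432 bp upstream of the br-RS start and 721 bp from the start of Mur2B, a gene on the other strand that overlaps all of br. Its entries had signals of 151, 218 and 155 and ranks of 1819, 1155 and 2368 in replicates 1, 2 and 3. A pooled entry 1 bp from the br-RH start ranked 17291, far below the optimal list. The lists disagreed on weak entries at br, with 30, 9 and 20 in replicates 1, 2 and 3.

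Eip78C (FBgn0004865, chr3L:21226609-21266503, plus strand), another nuclear receptor gene related to Rev-erb, had in the optimal list the lowest strongest summit of the 9 genes with a summit. Both lay in intron 3 of 5 of Eip78C-RA, 31.7 kb long, and neither was matched in all 3 replicates. The stronger, at chr3L:21241695 (peak chr3L:21241467-21241922, signal 174, rank 7072), lay 1348 bp downstream of the Eip78C-RB start. It ranked 5088 in replicate 2 and 6974 in replicate 3, and replicate 1 had no entry there. In replicate 1 the strongest entry of the gene was instead at the Eip78C-RB start, 17 bp downstream, at rank 4840. In the pooled list that start had an entry 30 bp downstream at rank 9283, below the optimal list, and replicate 2 had none. The replicates thus placed the main entry of Eip78C at different points.

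Eip93F (FBgn0264490, chr3R:21949114-22014539, plus strand) encodes a DNA-binding protein that directs adult development and the death of larval salivary glands. It had no optimal summit, and 5 entries of the pooled list of 30000. The best pooled entry ranked 13462 with a signal of 95.8, and lay 20732 bp downstream of the Eip93F-RA start. Replicate 2 listed it at rank 6836, replicate 3 at 23789, and replicate 1 not at all. Replicate 2 also had an entry at rank 3234 that lay 4728 bp beyond the 3' end and was in no other list. The replicates had 2, 12 and 5 entries at the gene. The nearest optimal summit lay outside the window, 8863 bp from the gene and 67 bp from the start of Mitofilin.

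Among the later regulators, Hr3 (FBgn0000448, chr2R:10203995-10237348, minus strand), a nuclear receptor gene related to vertebrate ROR whose product turns on ftz-f1, had the strongest summit of the 10 genes. It lay at chr2R:10220090 (peak chr2R:10219876-10220282), with a signal of 1762 and rank 141. Its entries had signals of 603, 641 and 534 and ranks of 106, 132 and 193 in replicates 1, 2 and 3, a mean rank of 144 ± 44.7 (SD, n = 3). Of the genes of at least 20 kb, 40 had a stronger highest summit. The summit lay 16907 bp into intron 1 of 8 of Hr3-RD, 26.9 kb long, and 7867 bp downstream of the Hr3-RA start. The genes CG12912 and CG46321 overlap Hr3 on the same strand and start at starts of Hr3, so this summit is theirs by position as much as that of Hr3. All 5 summits of Hr3 lay in that intron, the other 4 with signals of 185 to 336. The pooled list had an entry 183 bp upstream of the Hr3-RA start at rank 11367, which replicate 2 did not list.

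The product of ftz-f1 (FBgn0001078, chr3L:18750607-18801309, minus strand) is a nuclear receptor that makes tissues competent to respond to the next hormone pulse and that works with Ftz in segmentation of the embryo. Its 11 summits were all inside the gene body, 8 of them in intron 2 of 9 of ftz-f1-RB, 33.7 kb long, and 3 in intron 3. The summits from chr3L:18784782 to chr3L:18791647 also lay inside the noncoding gene lncRNA:CR45939. Those in intron 3 lay nearer to the start of lncRNA:CR45938 than to any start of ftz-f1. Of the 11, 6 were matched in all 3 replicates. For 1 of these, at chr3L:18769691 (rank 7495), the nearest entries ranked 11067, 3816 and 13047 in replicates 1, 2 and 3. Replicates 1 and 3 matched it only through another entry within 200 bp. The strongest, at chr3L:18769491 (peak chr3L:18769386-18769501, signal 444, rank 2022), lay 3747 bp upstream of the ftz-f1-RC start and ranked 1862, 2475 and 2342 in the replicates. The summit at that start itself, at chr3L:18765749 (peak chr3L:18765521-18765976), lay 5 bp upstream with a signal of 238 and rank 4868. It ranked 4763, 5636 and 3932.

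The most upstream start of ftz-f1, that of ftz-f1-RB, had no entry in the pooled list within 5 kb. Yet replicate 3 had its best entry for the whole gene there, 236 bp upstream, at rank 1152 with a signal of 231, and replicate 1 had an entry at rank 3134 with a signal of 110. Replicate 2 had none. The 3 summits in intron 3 were the only ones of the gene with no entry in at least 1 replicate list. The summit at chr3L:18759357, whose sequence is printed above, ranked 1634 in replicate 1 and 7313 in replicate 3 and was not listed in replicate 2. A second, 227 bp away, was listed in replicate 3 only, and the third, at chr3L:18756723, was in the strongest 8131 entries of no replicate.

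Hr39 (FBgn0261239, chr2L:21237250-21259675, plus strand) encodes the fly relative closest to Ftz-f1. Its 4 transcripts share 1 start, and a summit lay 74 bp downstream of it, at chr2L:21237324 (peak chr2L:21237096-21237551, signal 274, rank 4108). The entries had signals of 138, 34.3 and 100 and ranks of 2120, 12690 and 4578 in replicates 1, 2 and 3. Replicate 2 thus stood apart, and the summit was not matched there. The second summit, signal 205, lay 4223 bp beyond the 3' end and 35 bp from the start of mir-4974.

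The summits in the flanks belonged mostly to neighbours. Of the 6 flank summits not at a start of the gene, 5 lay within 119 bp of a start of another gene, Cyp6w1, CycT, Vps60, CG3740 or mir-4974, and the remaining 1, at Eip75B, lay 1016 bp from the start of a long noncoding RNA gene. Over all 55 summits, 17 had the start of another gene nearer than any start of the member. Just outside the 5 kb limit, the nearest summits were at 5875 bp from Eip74EF (signal 343) and 6159 bp from Eip75B (signal 171), and just inside it at 4547 bp from br (signal 306) and 4518 bp from EcR (signal 204).

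With the weaker entries included, the counts were again unequal between the genes, though the order below Eip75B differed. The pooled list of 30000 had 208 entries in the 10 windows, of which 153 fell below the optimal list. The share that was optimal was 26.4% in these windows and 27.1% over the whole list. Eip75B held 69 of the 208, EcR 28, Eip74EF 25, ftz-f1 24, br 20 and Eip78C 15. The remaining 4 genes held 9 (usp), 7 (Hr3), 6 (Hr39) and 5 (Eip93F). Hr3 was the reverse of Eip78C in this respect, with 5 of its 7 entries optimal against 2 of 15. The replicate lists had 183, 229 and 233 entries in the 10 windows, a mean of 215 ± 27.8 (SD, n = 3). Eip75B had 54, 79 and 66 of them in replicates 1, 2 and 3.

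Summits of a gene were spaced, as a rule, by several kb. The 46 gaps between neighbouring summits of a gene had a median of 4991 bp, and 6 were under 1 kb, the shortest 200 bp, at ftz-f1. Of the 55 peaks, 10 (18.2%) were narrower than 300 bp, against 24.6% of all peaks. The narrow ones were stronger, with a median signal of 434 against 233 for the wide ones, as over all peaks, where the medians were 447 and 235. The base composition of the 201 bases around a summit had a median of 39.8% G and C for the 55 summits and 36.8% for all.

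The short sequences were searched on both strands within 100 bp of each summit. AGGTCA was found at 5 of the 55 summits (9.09%), against 3.87% of all 8131. Those 5 were both summits of Eip78C and 1 each of Eip74EF, Eip75B and ftz-f1, with signals of 160 to 262. None of the 55 had TCAAGGTCA, the longer site of Ftz-f1 and Hr39, which contains AGGTCA and was found at 0.111% of all summits. No perfect inverted repeat of AGGTCA with 1 base between the copies, a form that EcR and Usp can bind as a pair, was found at any of the 55 or of the 8131. Only that exact sequence was searched, not imperfect repeats. A sequence so long is seldom met, so its absence shows little about sites of EcR and Usp. CCGGAA, a core site of Ets proteins such as Eip74EF, was at none of the 55 and at 4.07% of all. GAGAGAG was at 4 (7.27%), 3 of Eip75B and 1 of ftz-f1, against 4.77% of all.

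GATAAG, a site of GATA proteins, was at 2 of the 55 (3.64%), among them the strongest summit of Hr3, against 12.1% of all summits. None of the 55 had TATCGATA, the site of the promoter protein Dref, GGTCACACT, that of M1BP, or CAGGTAG, that of Zelda, within 100 bp; the Zelda sites before the Eip75B-RA start lay farther from its summit. Those were found at 3.37%, 2.61% and 0.787% of all summits. With so few summits at starts among the 55, the first pair of shares is better read against summits more than 250 bp from any start, where they were 0.52% and 0.32%. A short sequence that is missing says only that these letters were not in this window.

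GCGCCATCT, the core of the CTCF site, was searched after it had been seen in the sequences, so its count is a description of a chosen pattern. It was at 4 of the 55 summits (7.27%) and at 1.03% of all 8131, and at 0.8% of the 1000 strongest. Among summits more than 250 bp from any start it was at 4 of 43 (9.30%) and at 1.1% of 5000. The 4 were the strongest summit of EcR, which had it at 2 places, 72 and 77 bp to either side of the summit, the summit of Eip74EF at chr3L:17597050 with the match 77 bp away, and the summits of Eip75B at chr3L:17988310 and chr3L:18019815 with the match 39 and 36 bp away. All 4 had signals above the median of all summits and were matched in all 3 replicates. CGCCATCT, the same core without its first base, added the ftz-f1 summit at chr3L:18759357, for 5 of 55 (9.09%) against 1.72% of all.

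**Figure D4:**
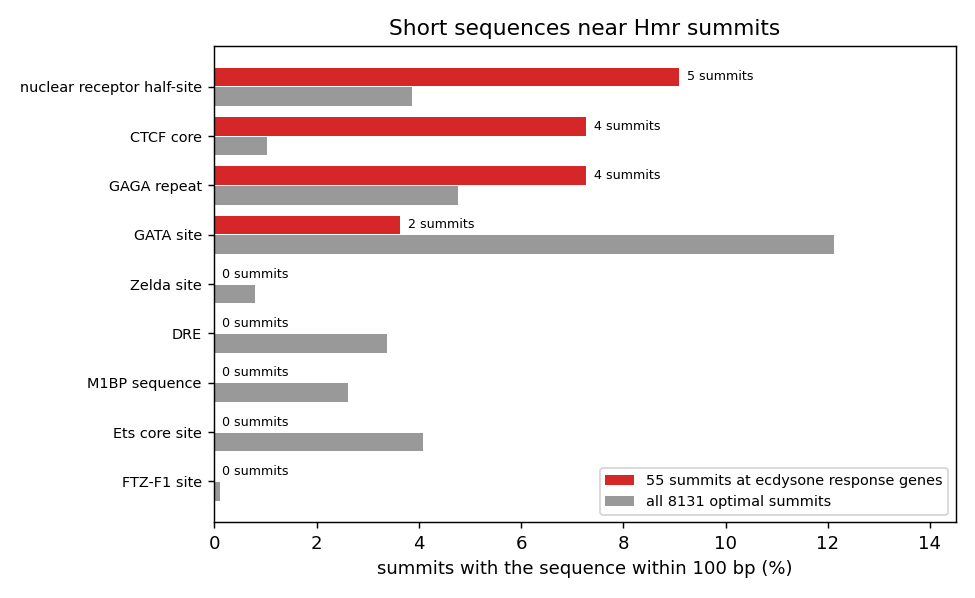
Share of summits with a short sequence within 100 bp, in percent, for the 55 summits at the 10 ecdysone response genes (red) and for all 8131 optimal summits (grey), with the number of the 55 beside each red bar. The red bars are longer for the nuclear receptor site, the CTCF core and the GAGA repeat, each resting on 4 or 5 summits, and shorter for the GATA site. The Ets, Dref, M1BP, Ftz-f1 and Zelda sites were found at none of the 55 and so have no red bar.

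The other genes of the hormone pathway were read from lists of 82 genes. Of these, 45 (54.9%) had an optimal summit in their window and 17 (20.7%) within 250 bp of a start, against 59.3% and 23.4% of all protein-coding genes. Of 11 genes for making the hormone, 4 had a summit in the window and 0 at a start. The strongest were beside dare (signal 720), sad (515) and shd (270), and those of dare and sad lay nearest to the starts of Fbl6 and CG31368. Of 5 genes that control its synthesis, 3 had a summit in the window and 2 at a start. The strongest in the window of Ptth, the gene of the brain hormone that triggers ecdysone release, had a signal of 640 and lay 69 bp from the start of cold. That in the window of mld (441) lay 25 bp from the start of atl, and that of vvl (192) at its own start. The strongest in the window of EcI, the gene of the ecdysone importer, had a signal of 415 and lay 75 bp from the start of CG7564, and Cyp18a1, whose product inactivates ecdysone, had none.

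Of 8 genes for cofactors of the receptor, 6 had a summit in the window and 4 at a start. The strongest were at Hsp83, the gene of the chaperone Hsp90 (signal 2410), Smr, a corepressor gene (1116), and tai, a coactivator gene (749), which had 13 summits. The summit at tai was nearer to the start of CG9586. Of 14 other nuclear receptor genes, 9 had a summit in the window and 4 at a start, with Hr4 at 1386, Hr96 at 990, nearer to the start of EMC6, and Hnf4 at 754. Hr4, an early-late gene of the same cascade, had 15 summits, second to Eip75B among the nuclear receptor genes looked at. Of 5 genes of the juvenile hormone pathway, which holds back the ecdysone response in larvae, 4 had a summit in the window and 0 at a start, with gce at 1904, Kr-h1 at 456 and Met at 359.

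Of 37 further target genes, 18 (48.6%) had a summit in the window and 6 (16.2%) at a start. Over all protein-coding genes these shares were 59.3% and 23.4%. The genes of this list are short, with a median length of 1.09 kb, and they are not all separate observations. Sgs3, Sgs7 and Sgs8 were counted through the same summit (rank 5752). The strongest in this list were near Eip71CD (signal 1964), Lsp2 (1917) and Sgs4 (1661), and lay nearest to the starts of CG7841, yps and dnc. None of the 11 Eig71E genes, a cluster of small late genes, had a summit in its window. They are 0.467 to 1.54 kb long and lie in 1 cluster, so they are not 11 separate observations.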

How the data were processed

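Per the text files that the authors deposited beside each sample, the authors called a relaxed list for each replicate and for the pooled replicates, each against a control, and kept an optimal list by the irreproducible discovery rate (IDR). The authors' signal value of each entry was used to rank entries within 1 list only, and other deposited columns gave positions and the distance from an entry's start to its summit. The peak caller, the aligner, their versions and the IDR cutoff were not given in the sources used here. Each relaxed list held 30000 entries, and the 8131 optimal entries were the strongest pooled ones. Lists in dm3 were not used here. Gene models were those of Ensembl release 115 (FlyBase identifiers) and the sequence was RefSeq Release 6. Summits were assigned with Python 3.11.15, numpy 2.4.6 and pandas 2.3.3, and the assignment was tested on simulated summits. A summit counted for every gene whose window held it. Replicate values are those of the entry nearest to the summit, within 200 bp. No test between groups was possible with 1 group. All 10 genes were named, each with its strongest summit and all summits within 250 bp of a start, and up to 3 genes of each pathway list by signal. All 82 listed genes were found, 6 of them by a synonym. The genes, lists and short sequences were chosen with earlier results of these data known. Alternatives to the window, the start distance, the match and the signal limit were run, and each replicate was left out in turn. The class of genes of at least 20 kb was added after the data were seen.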

Additional observations from a re-analysis of the deposited data

How the results depend on the processing

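Of 50 alternative values, 42 stayed within 1.5 times the main value. Keeping only summits above the median signal left 19 of the 55 summits, 2.88 per 100 kb, and 2 genes with a summit at a start. Requiring a match in both remaining replicates, with each replicate left out in turn, gave 33 to 39 summits and 4.99 to 5.90 per 100 kb, the low values without replicate 3. Densities of the comparison sets, and the share of all genes with a summit at a start, were not computed under these settings. The values therefore do not show whether the higher density of the 10 windows holds under them. The number of genes with a summit ranged from 7 to 10 over all settings, reaching 10 with a 10 kb window, which takes in the Mitofilin start beside Eip93F. With that window 73.8% of all protein-coding genes had a summit. The number was 9 with a 2 kb window and 9 with the gene body alone, where 44.9% and 17.2% of all protein-coding genes had one. Shares of genes of at least 20 kb were not computed for these settings. Counting every entry of the replicate lists raised the summits matched in all 3 replicates to 48 of 55, against 91.5% of all optimal summits. Of the 82 pathway genes, 18 had a summit with the gene body alone, a setting under which 17.2% of all protein-coding genes did, and 26 had one at a start within 1000 bp, a setting under which 31.8% did. Giving each summit to the nearest start only left 38 of the 55 with these genes. Ranking by the eighth column was not run, because it holds no values. No paired analysis was possible because there was 1 group. The unknown depth limits what a missing weak entry says, as at Eip93F.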
